A study of Homo sapiens with 15 samples.

Results

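The expression of ATGL knockout cells that had received wild-type ATGL was compared with that of scramble control cells. The aim was to describe how cells with the enzyme put back differ from the control. All cells were C4-2, an established castration-resistant prostate cancer line derived from LNCaP. The groups were taken from the sample titles, and the 2 compared hold 6 of the 15 libraries of the series. KO_WT is the ATGL knockout with a wild-type ATGL addback (3 libraries), KO is the ATGL knockout alone (3 libraries, used side by side), and Scramble is the scramble control (3 libraries). KO_S47A and KO_S404A are the knockout with an S47A or an S404A ATGL addback (3 libraries each). Their libraries entered the fit of all 15 libraries and so the estimate of spread. Cells of every group were plated in glucose-free RPMI1640 to which 5 mM glucose and 5% dialyzed FBS had been added, and poly(A) RNA was sequenced. Each genotype is 1 line, and the sources used here do not say whether a line is a clone or a pool, nor which promoter or vector drives the added copy. The labels do not say whether replicates came from separate cultures. The p-values therefore cover the spread among these libraries alone, and that spread may be technical.

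ATGL, the protein of PNPLA2, sits on lipid droplets and starts the breakdown of stored triglyceride by cutting off a fatty acid. Hormone-sensitive lipase and monoglyceride lipase continue the breakdown, ABHD5 activates ATGL, and G0S2 inhibits it. The fatty acids released feed mitochondrial oxidation, membrane synthesis and the nuclear receptors of the PPAR family. In prostate cancer cells, lipid use and androgen signalling are known to be linked.

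Counts in genes ran from 40846694 to 51662088 per library among the 6 compared. Levels are given as CPM, counts scaled to the library's total and then by the TMM method of edgeR, and differences as log2 fold changes, KO_WT minus Scramble, with their standard error (SE). A gene was called when the Benjamini-Hochberg adjusted p of edgeR's quasi-likelihood test, taken over all 14246 tested genes, was under 0.05. The libraries numbered 3 stood apart from those numbered 1 and 2 in both lines. The chi-square of counts between a pair of libraries, per degree of freedom, was 8.107 for KO_WT numbers 1 and 2. It was 138.8 and 98.22 for the KO_WT pairs with number 3. In Scramble it was 9.945 for numbers 1 and 2, and 70.88 and 92.47 for the pairs with number 3. Within a line, the summed level of 40 ATF4 and amino acid response genes ran from 6298.2 to 16176.6 CPM in KO_WT and from 7364.3 to 14937.3 CPM in Scramble. Of 11 markers of prostate adenocarcinoma lines, all were tested, and their summed level was 7255.5 to 7617.6 CPM in KO_WT and 8330.6 to 8846.2 CPM in Scramble. Of 17 markers of stroma, endothelium and blood, 6 had enough counts to be tested and 5, among them PTPRC, CD3E and HBB, had no count in any of the 6 libraries.

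PNPLA2 itself was 4.50 times as high in KO_WT as in Scramble. It stood at 212.7, 206.6 and 240.5 CPM in KO_WT, at 13.0, 11.9 and 9.11 CPM in KO, and at 54.3, 47 and 45.3 CPM in Scramble. Every KO_WT library was above every Scramble library, and every KO library was below both. KO_WT minus Scramble was 2.17 on the log2 scale (SE 0.20, adjusted p = 2.71e-05), and against KO it was 4.28 (adjusted p = 3.49e-07). Reads of the endogenous and of the added copy cannot be told apart in these counts, and a frameshifted transcript may still be read, so the KO level says nothing of protein. In bulk RNA, fewer cells that express a gene and less RNA of it per cell cannot be told apart, here and in what follows.

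**Figure D1:**
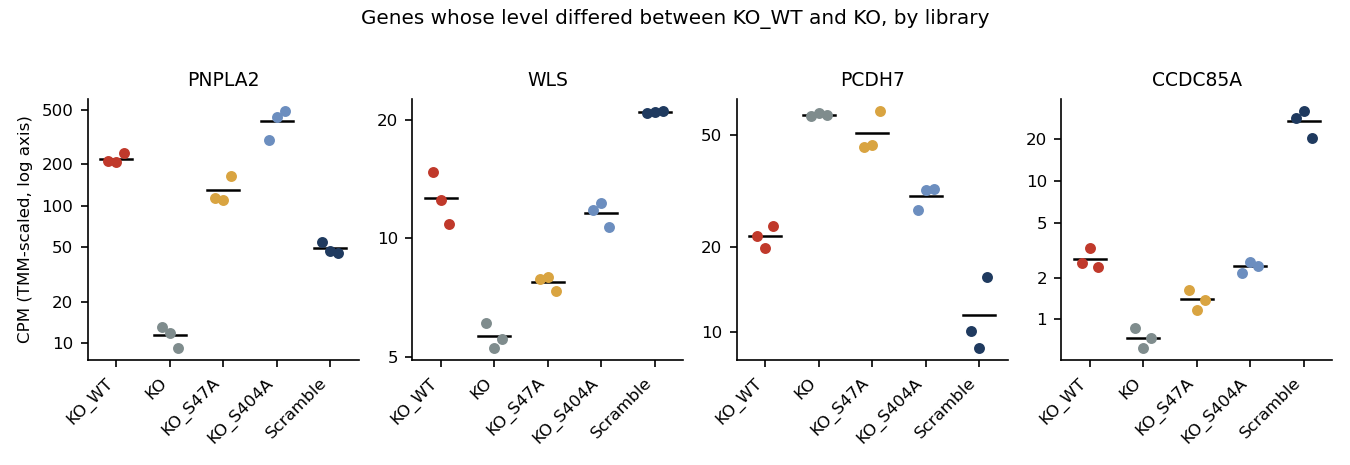
Levels of the 4 genes that differed between KO_WT and KO by the edgeR test, in TMM-scaled CPM on a log axis; points are libraries, horizontal lines are means of 3 libraries, and all 5 lines of the series are shown. PNPLA2 lies above Scramble in KO_WT, whereas WLS, PCDH7 and CCDC85A lie between KO and Scramble in KO_WT.

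With PNPLA2 put back, 494 of 14246 genes (3.47%) differed between KO_WT and Scramble. Of these, 215 (1.51%) were higher in KO_WT and 279 (1.96%) were lower, and 96 and 109 of them differed by at least 2-fold. A call did not require that KO differed from Scramble as well. The called gene HK2, for example, had a KO minus Scramble log2 fold change of -0.06 (edgeR adjusted p = 0.896). The CPM ranges of KO_WT and Scramble did not overlap in any of the 494, as in 23.1% of all tested genes. The median log2 fold change over all tested genes was 0.01. The count of calls fell when any 1 library was left out, which also left fewer libraries in its group. It was 240 without the KO_WT library numbered 1 (KO_WT 1, and likewise for the others), 278 without KO_WT 2 and 440 without KO_WT 3. It was 280 without Scramble 1, 317 without Scramble 2 and 272 without Scramble 3. With replicate number as a block the count was 1429 (10.0%), 653 higher (4.58%) and 776 lower (5.45%), and all 494 genes were among them.

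**Figure D2:**
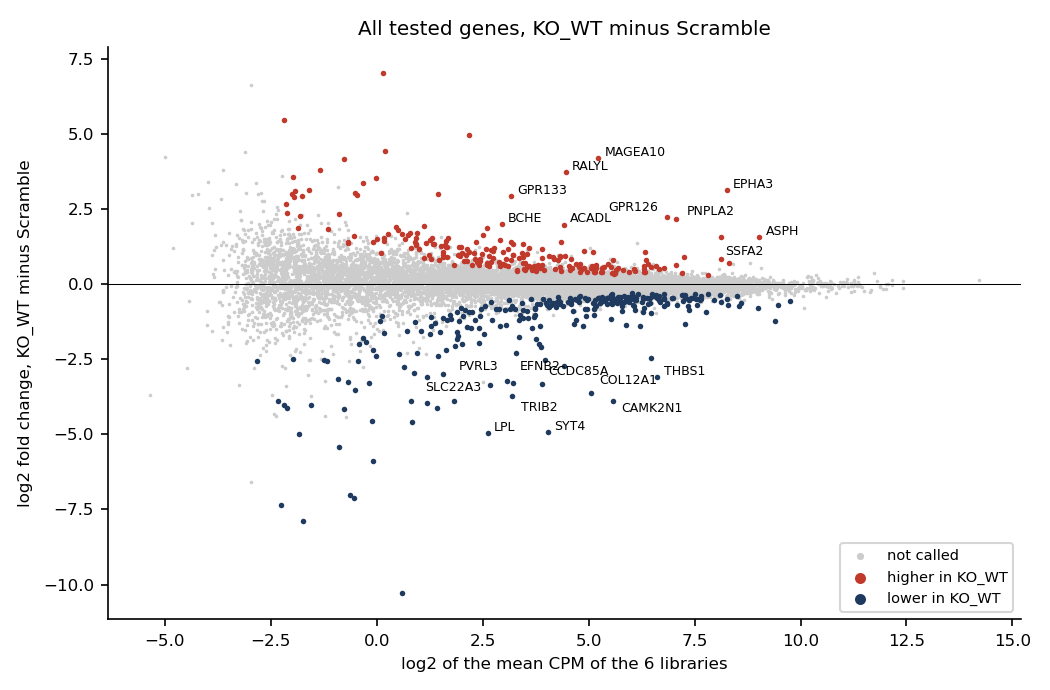
Log2 fold change of KO_WT minus Scramble against the log2 of the mean level in the 6 libraries, in TMM-scaled CPM, for the 14246 tested genes. Coloured points are the 215 called higher and 279 called lower in KO_WT, and the names are the 20 genes taken by the size of their change.

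The comparison of KO_WT with KO, fitted in the same model, called 4 genes of 14246 (0.0281%), with 1080 at an unadjusted p under 0.05. PNPLA2, WLS and CCDC85A were higher in KO_WT and PCDH7 was lower. With the replicate block the count was 15 (0.105%), with 10 higher (0.0702%) and 5 lower (0.0351%). The median 95% interval of a log2 fold change reached 0.36 to either side in both comparisons, before any adjustment for the number of genes. The called differences were larger than that, from 1.17 in size for WLS, and a log2 fold change as large as 1.64 (COL12A1, adjusted p = 0.0623) was not called against KO. Values of KO are given for many of the genes that follow; KO_WT minus Scramble and KO minus Scramble share the Scramble libraries.

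Chromosome 22 held a larger share of called genes than any other chromosome, nearly all of them lower in KO_WT. Of 375 tested genes on it, 68 were lower in KO_WT, 1 was higher, and the median log2 fold change was -0.38. The share called was 18.4% there, against 1.71% to 5.23% on each other chromosome, whose medians ran from -0.04 to 0.06. The single gene that was higher was APOBEC3F, a cytidine deaminase with close relatives beside it, named after its values were seen. With chromosome 22 left out of the fit, 398 genes were called, 196 higher and 202 lower.

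Genes of lipolysis other than PNPLA2 gave 1 call. Beside this list and all that follow, 1.51% of all tested genes were called higher and 1.96% lower. With the replicate block these shares were 4.58% and 5.45%. Of 19 tested genes of lipolysis and lipid droplets, 2 were higher, PNPLA2 and HSD17B11, and 0 were lower, with a median log2 fold change of 0.03. HSD17B11, a droplet-bound dehydrogenase, had 19.2, 17.4 and 14.8 CPM in KO_WT, 13.8, 14.7 and 14.1 CPM in KO and 11.0, 10.7 and 12.1 CPM in Scramble (log2 fold change 0.61, SE 0.13, adjusted p = 0.0164). Its call was lost without KO_WT 1, KO_WT 2, Scramble 1 or Scramble 2, at adjusted p = 0.0742 to 0.102. The count of higher genes was then 1, PNPLA2 alone. The following members were named after their values were seen. ABHD5, the activator of ATGL, averaged 31.6 ± 0.822 CPM in KO_WT and 30.3 ± 2.72 CPM in Scramble (SD, n = 3 each), with overlapping ranges (adjusted p = 0.835). LIPE, hormone-sensitive lipase, averaged 2.39 ± 0.483 CPM in KO_WT and 2.21 ± 0.410 CPM in Scramble, also with overlapping ranges (adjusted p = 0.898). MGLL, monoglyceride lipase, averaged 29.0 ± 1.85 CPM in KO_WT, 33.5 ± 2.78 CPM in KO and 21.4 ± 2.85 CPM in Scramble. Its adjusted p was 0.0812, and 0.00711 with the replicate block. G0S2 and CIDEC had no count in the 6 libraries. For these and all other genes without a count, whether the 0 reflects the cells or the annotation used in counting was not tested.

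Of the fatty acid uptake genes, LPL had the largest fall. LPL, lipoprotein lipase, frees fatty acids from circulating lipoproteins. It had 0.335, 0.335 and 0.468 CPM in KO_WT, 0.329, 0.486 and 0.262 CPM in KO, and 11.7, 9.03 and 15.0 CPM in Scramble. The KO_WT and KO libraries overlapped, and both lay far below Scramble, 31.1-fold in the fit of KO_WT. KO_WT minus Scramble was -4.96 on the log2 scale (SE 0.57, adjusted p = 0.000218), and KO_WT minus KO was 0.08 with a 95% interval of -1.19 to 1.34. Among the 22 tested uptake and binding genes, LPL fell and SLC27A3, an acyl-CoA synthetase of the fatty acid transport family, rose, with a list median of 0.04. SLC27A3 had 6.17, 5.21 and 8.30 CPM in KO_WT, 7.34, 6.45 and 6.55 CPM in KO and 2.55, 3.00 and 4.15 CPM in Scramble (log2 fold change 1.02, SE 0.25, adjusted p = 0.0363). Its call was lost without KO_WT 1, KO_WT 3, Scramble 1 or Scramble 2, at adjusted p = 0.0918 to 0.168. With the replicate block, 2 uptake genes rose and 3 fell.

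Of 37 tested genes of fatty acid oxidation and ketone use, 3 rose and 0 fell, with a median of 0.00. Over all tested genes 1.51% rose and 1.96% fell. ACADL, the long-chain acyl-CoA dehydrogenase of mitochondria, had 35.7, 34.5 and 32.1 CPM in KO_WT, 41.2, 41.5 and 33.3 CPM in KO and 7.91, 7.21 and 10.8 CPM in Scramble. KO_WT overlapped KO and was clear of Scramble (log2 fold change 1.98, SE 0.16, adjusted p = 8.10e-06). ACOX2, a peroxisomal oxidase of branched chains and bile acid precursors, had 3.1, 4.31 and 3.13 CPM in KO_WT, 2.57, 2.61 and 3.1 CPM in KO and 1.30, 1.01 and 1.53 CPM in Scramble (log2 fold change 1.45, SE 0.19, adjusted p = 0.000918). BDH2, a dehydrogenase of ketone metabolism, averaged 4.96 ± 0.495 CPM in KO_WT and 2.52 ± 0.696 CPM in Scramble (adjusted p = 0.0348), and lost its call without any of KO_WT 1, KO_WT 2, KO_WT 3, Scramble 2 or Scramble 3 (adjusted p = 0.0742 to 0.145). CPT1A, the gate of mitochondrial fatty acid import, was named after its values were seen. It stood at 250.6, 240.9 and 251.3 CPM in KO_WT against 302.9, 330.3 and 308.5 CPM in Scramble, and was not called (adjusted p = 0.0516; 0.0185 with the replicate block). With that block, 5 genes of the list rose and 2 fell.

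Synthesis genes gave single calls. Of 30 tested genes of triglyceride and phospholipid synthesis, 1 rose and 1 fell (median -0.04; 2 and 3 with the replicate block). Of 19 genes of fatty acid synthesis 1 rose and 0 fell (median -0.09; 2 rose and 3 fell with the block). AGPAT4, a lysophosphatidic acid acyltransferase, had 2.22, 2.82 and 2.87 CPM in KO_WT, 2.63, 2.04 and 2.58 CPM in KO and 0.951, 0.746 and 0.724 CPM in Scramble (log2 fold change 1.71, SE 0.29, adjusted p = 0.00431). LPIN1, a phosphatidate phosphatase on the way to triglyceride, averaged 49.2 ± 7.18 CPM in KO_WT, 61.2 ± 7.87 CPM in KO and 74.1 ± 4.12 CPM in Scramble (log2 fold change -0.59, SE 0.12, adjusted p = 0.0129). The LPIN1 call was lost without KO_WT 1, KO_WT 2 or Scramble 1 (adjusted p = 0.0529 to 0.0677). SCD5, a stearoyl-CoA desaturase, had 28.6, 22.9 and 26.9 CPM in KO_WT, 20.6, 19.9 and 26.4 CPM in KO and 12.7, 14.5 and 14.2 CPM in Scramble (log2 fold change 0.92, SE 0.13, adjusted p = 0.00107). DGAT1 and DGAT2, which add the last acyl chain of triglyceride, and FASN, the fatty acid synthase, were named after their values were seen. DGAT1 averaged 24.8 ± 1.25 CPM in KO_WT and 23.4 ± 1.27 CPM in Scramble, and DGAT2 24.1 ± 4.33 CPM and 24.3 ± 5.31 CPM in the same order; neither was called (adjusted p = 0.775 and 0.994). FASN had 582.8, 656.2 and 1132.2 CPM in KO_WT, 1478.2, 1182.0 and 1218.6 CPM in KO and 1520.0, 1166.2 and 1404.5 CPM in Scramble. All 3 KO_WT libraries lay below Scramble, but library 3 lay close to it, and the adjusted p was 0.234 (0.0368 with the replicate block).

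For the lists of regulators and glucose metabolism, the share called over all tested genes was 3.47%, and 10.0% with the replicate block. NCOA1, a nuclear receptor coactivator, had 113.0, 113.6 and 120.4 CPM in KO_WT, 151.6, 129.3 and 117.7 CPM in KO and 77.9, 74.5 and 74.3 CPM in Scramble (log2 fold change 0.61, SE 0.11, adjusted p = 0.00770). RXRA, the shared partner of the PPARs, averaged 92.0 ± 3.01 CPM in KO_WT and 125.9 ± 4.42 CPM in Scramble (adjusted p = 0.0462), and its call was lost without any 1 of the 6 libraries (adjusted p = 0.0778 to 0.136). These were the only calls, 1 higher and 1 lower, among 17 PPAR and PGC-1 regulators (median -0.06; 3 fell with the replicate block). In glycolysis and lactate handling 2 of 28 genes fell and 0 rose (median -0.19). SLC16A3, the lactate exporter MCT4, had 12.9, 12.4 and 17.7 CPM in KO_WT, 18.6, 13.8 and 19.3 CPM in KO and 35.4, 31.4 and 42.6 CPM in Scramble (log2 fold change -1.34, SE 0.29, adjusted p = 0.0174). HK2, a hexokinase, averaged 52.4 ± 4.21 CPM in KO_WT, 67.0 ± 3.75 CPM in KO and 69.8 ± 4.54 CPM in Scramble (adjusted p = 0.0427). The SLC16A3 call was lost without KO_WT 1, KO_WT 2, Scramble 1 or Scramble 3 (adjusted p = 0.0511 to 0.0875), and the HK2 call without any library but KO_WT 3 (adjusted p = 0.0513 to 0.161). The count of lower glycolysis genes was 0 without KO_WT 1, KO_WT 2, Scramble 1 or Scramble 3, and 5 with the replicate block, which also called 1 higher. Among 60 respiratory chain subunits and 14 AMPK genes, 0 were called by DESeq2 or by the unblocked edgeR fit of all 15 libraries, and 2 of each list had an unadjusted p under 0.05 (medians -0.03 and -0.01). A single respiratory chain subunit was lower with the replicate block, in the fit of the 2 groups alone and with the libraries numbered 1 and 2 alone. SREBF2, the master regulator of cholesterol synthesis and the single lower gene of 26 in that list (5 with the replicate block), is on chromosome 22 and averaged 145.4 ± 22.7 CPM in KO_WT and 234.1 ± 39.8 CPM in Scramble (adjusted p = 0.0499). Its call was lost without each library but Scramble 3 (adjusted p = 0.0870 to 0.179).

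Of the genes with the largest changes, 3 (PNPLA2, LPL and ACADL) are described above with lipid metabolism. From the called genes whose ranges were separate and whose mean reached 10 CPM in the higher line, the 10 with the largest rise and the 10 with the largest fall were taken. All 20 were called with each library left out in turn and in the 7 other settings tried. Of the 19 other than PNPLA2, CCDC85A alone differed between KO_WT and KO by the same unblocked test. With the replicate block COL12A1, CAMK2N1, EFNB2 and RALYL also did.

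**Figure D3:**
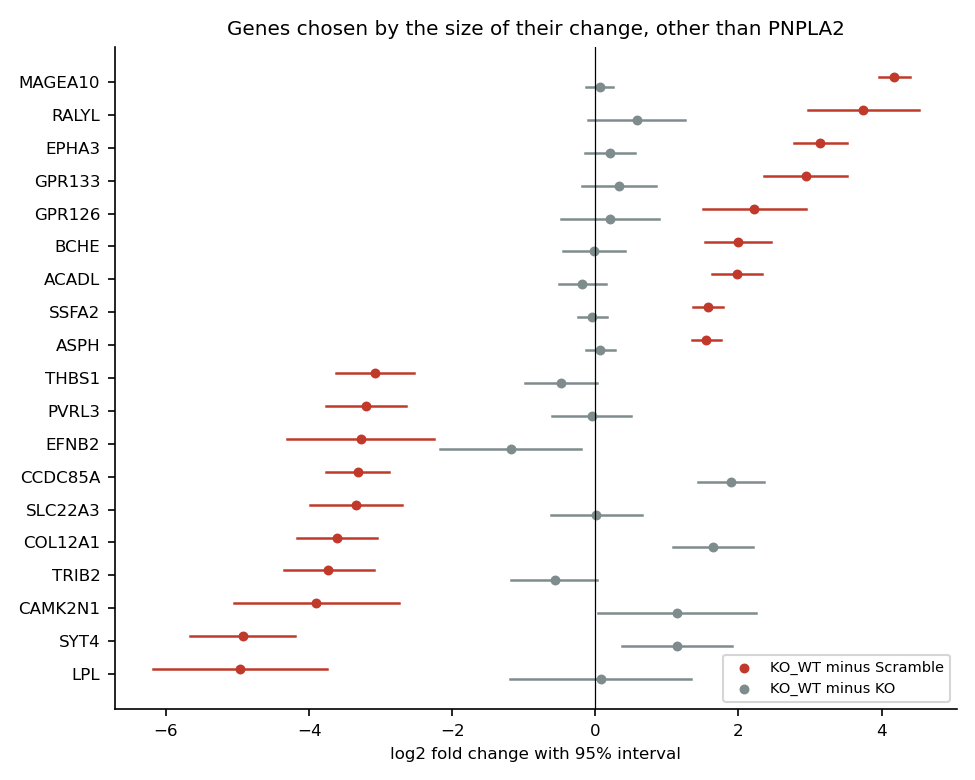
Log2 fold changes with 95% intervals for the 19 genes other than PNPLA2 taken by size of change; red is KO_WT minus Scramble and grey is KO_WT minus KO. MAGEA10 had the highest and LPL the lowest red value, 4.18 and -4.96, whereas most grey intervals span 0 and those of COL12A1 and CCDC85A lie above 1.

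MAGEA10, a cancer-testis antigen of the X chromosome that is normally expressed in the germ line, had the largest rise of this set. It had 74.4, 69.7 and 69.7 CPM in KO_WT, 66.6, 70.6 and 67.8 CPM in KO, and 3.88, 4.29 and 3.6 CPM in Scramble. KO_WT and KO overlapped, and both were clear of Scramble (log2 fold change 4.18, SE 0.10, adjusted p = 1.24e-11). Of 15 tested genes of the cancer-testis list, 4 rose and 2 fell, with a median of 0.00. CTAG2 was lower, at 0.146, 0.144 and 0.128 CPM in KO_WT against 4.08, 3.04 and 3.15 CPM in Scramble (log2 fold change -4.60, SE 0.47, adjusted p = 9.32e-05). MAGEA4 had 1, 0 and 0 counts in KO_WT against 46, 81 and 50 counts in Scramble. On summed counts scaled to depth, the ratio of Scramble over KO_WT was 173.4, with a 95% interval of 30.7 to 6888.9 that covers counting error only. PAGE4, MAGEC2 and MAGEA5 were the other 3 that rose (adjusted p = 0.0115, 0.0214 and 0.0181). MAGEA5, now annotated as a pseudogene, had 26, 24 and 6 counts in KO_WT against 0, 0 and 1 counts in Scramble, a ratio of KO_WT over Scramble of 57.1 (95% counting interval 9.85 to 2297.0). All 3 lost the call without KO_WT 1, KO_WT 2 or Scramble 3 (adjusted p = 0.0554 to 0.0880), when MAGEA10 alone was higher. PAGE4 and MAGEA5 also lost it without Scramble 1 (adjusted p = 0.0584 and 0.0854), and MAGEC2 and MAGEA5 without Scramble 2 (adjusted p = 0.0513 and 0.0867). Members of the MAGEA family are near-identical in places, so the counting can have split or dropped their shared reads.

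Receptors and ligands of cell contact moved in both directions. EPHA3, a receptor of ephrins that guides cell positioning, had 610.1, 589.7 and 450.3 CPM in KO_WT, 483.5, 511.0 and 432.7 CPM in KO and 63.5, 67.8 and 55.9 CPM in Scramble (log2 fold change 3.14, SE 0.17, adjusted p = 3.12e-07). EFNB2, a membrane-bound ephrin ligand, had 1.40, 1.03 and 2.79 CPM in KO_WT, 3.56, 3.06 and 5.29 CPM in KO and 13.3, 13.0 and 24.6 CPM in Scramble (log2 fold change -3.28, SE 0.48, adjusted p = 0.00156). Every EFNB2 value of KO_WT was below every value of KO, and the difference was not called (log2 fold change -1.18, adjusted p = 0.625, and 0.0138 with the replicate block). EFNB2 averaged 2.26 CPM in KO_S47A and 2.88 CPM in KO_S404A. EPHA6 was 2.04-fold lower in KO_WT, at 10.2, 9.40 and 6.90 CPM, than in Scramble, at 19.1, 18.5 and 16.3 CPM (adjusted p = 0.0111). In KO it had 14.8, 15.1 and 11.9 CPM, all above KO_WT, a difference not called (log2 fold change -0.66, adjusted p = 0.625, and 0.0489 with the replicate block). EPHA6 averaged 17.6 CPM in KO_S47A and 10.1 CPM in KO_S404A. EPHA7 was at the edge of detection, with 2, 0 and 1 counts in KO_WT and 11, 35 and 13 counts in Scramble, and its call was lost without any 1 library (adjusted p = 0.05 to 0.132). In all, 1 of 20 tested ephrin receptors and ligands rose and 3 fell, with a median of 0.06; with the replicate block 2 rose and 5 fell.

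Adhesion G protein-coupled receptors couple contact with matrix or neighbouring cells to G proteins. Of 18 tested, 3 rose and 1 fell (median -0.09; 2 fell with the replicate block). GPR126 (ADGRG6) had 228.5, 216.5 and 121.5 CPM in KO_WT, 193.1, 185.2 and 114.7 CPM in KO and 45.7, 43.5 and 32.3 CPM in Scramble (log2 fold change 2.22, SE 0.33, adjusted p = 0.00196). Library 3 was the lowest of each line, and the groups KO_WT and Scramble were far apart in every pair of libraries. GPR133 (ADGRD1) had 19.3, 17.2 and 11.2 CPM in KO_WT, 14.4, 12.9 and 10.6 CPM in KO and 2.35, 2.30 and 1.58 CPM in Scramble (log2 fold change 2.94, SE 0.27, adjusted p = 2.54e-05). LPHN2 (ADGRL2), a latrophilin, averaged 0.0281 ± 0.0244 CPM in KO_WT, 0.103 ± 0.0595 CPM in KO and 1.85 ± 0.555 CPM in Scramble (adjusted p = 0.000160). CD97 (ADGRE5) averaged 54.0 ± 0.634 CPM in KO_WT and 42.3 ± 2.40 CPM in Scramble, and its call (adjusted p = 0.0330) was lost without any 1 library (adjusted p = 0.0690 to 0.159).

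Calls among matrix genes were all lower in KO_WT. Of 34 tested mesenchymal, matrix and motility genes, 4 fell and 0 rose, while the list's median was 0.07; with the replicate block 4 rose and 7 fell. THBS1, the matrix glycoprotein thrombospondin, had 16.5, 20 and 26.1 CPM in KO_WT, 27.1, 28.8 and 31.4 CPM in KO and 171.3, 135.9 and 221.8 CPM in Scramble (log2 fold change -3.08, SE 0.25, adjusted p = 8.10e-06). FN1, fibronectin, had 24.5, 27.6 and 30.1 CPM in KO_WT, 38.6, 34.9 and 27.8 CPM in KO and 172.8, 127.8 and 150.3 CPM in Scramble (log2 fold change -2.46, SE 0.15, adjusted p = 5.78e-07). For neither did KO_WT lie above the KO range. COL12A1, a collagen associated with fibrils, had 6.01, 4.45 and 4.66 CPM in KO_WT, 1.60, 1.60 and 1.63 CPM in KO and 71.1, 71.7 and 42.6 CPM in Scramble. It remained 12.2-fold below Scramble in KO_WT (log2 fold change -3.61, SE 0.26, adjusted p = 2.79e-06), and every KO_WT library was above every KO library. Against KO its log2 fold change was 1.64 (95% interval 1.08 to 2.21), not called at adjusted p = 0.0623, and called with the replicate block (adjusted p = 0.000318). A level above KO was not particular to KO_WT, since COL12A1 averaged 4.35 CPM in KO_S47A and 4.00 CPM in KO_S404A. LAMC1, a laminin chain, averaged 165.9 ± 14.0 CPM in KO_WT and 236.4 ± 30.7 CPM in Scramble (adjusted p = 0.0240), a call lost without each library but KO_WT 3 and Scramble 2 (adjusted p = 0.0701 to 0.119).

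The other fallen genes of the ranked set had diverse functions. SYT4, a synaptotagmin of vesicle release that is on the neuroendocrine list, had 0.711, 0.885 and 1.53 CPM in KO_WT, 0.267, 0.486 and 0.655 CPM in KO and 36.3, 35.2 and 24.2 CPM in Scramble (log2 fold change -4.93, SE 0.34, adjusted p = 1.85e-06). It was the single called gene of 7 neuroendocrine and of 16 synaptotagmin genes tested (with the replicate block 1 rose and 2 fell among the synaptotagmins). CAMK2N1, an inhibitor of the kinase CaMKII, had 7.74, 6.48 and 3.77 CPM in KO_WT, 3.47, 3.06 and 1.63 CPM in KO and between 42.8 and 126.4 CPM in Scramble. Libraries numbered 3 were the lowest in all 3 lines (log2 fold change -3.90, SE 0.54, adjusted p = 0.00107). KO_WT was 1.14 above KO on the log2 scale, not called at adjusted p = 0.625 and called with the replicate block (adjusted p = 0.00983). CAMK2N1 averaged 5.67 CPM in KO_S47A and 4.37 CPM in KO_S404A. Its partner kinase CAMK2D averaged 6.43 ± 0.390 CPM in KO_WT and 11.4 ± 1.48 CPM in Scramble (adjusted p = 0.0153), a call lost without KO_WT 2, Scramble 1 or Scramble 2 (adjusted p = 0.0528 to 0.0685). TRIB2, a pseudokinase that directs protein degradation, averaged 1.29 ± 0.104 CPM in KO_WT, 1.93 ± 0.818 CPM in KO and 17.1 ± 4.42 CPM in Scramble. SLC22A3, a transporter of organic cations, averaged 1.14 ± 0.234 CPM in KO_WT, 1.13 ± 0.148 CPM in KO and 11.6 ± 1.19 CPM in Scramble. PVRL3 (NECTIN3), an adhesion molecule of cell junctions, averaged 1.64 ± 0.210 CPM in KO_WT, 1.69 ± 0.311 CPM in KO and 15.1 ± 2.91 CPM in Scramble. These last 3 genes were 13.2-, 10.2- and 9.25-fold lower in KO_WT than in Scramble, with KO_WT and KO within each other's spread for SLC22A3 and PVRL3.

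The remaining risen genes of the ranked set were of mixed function. ASPH, a hydroxylase of the endoplasmic reticulum, had 832.0, 817.6 and 692.6 CPM in KO_WT, 736.3, 760.4 and 734.4 CPM in KO and 257.4, 256.4 and 283.8 CPM in Scramble (log2 fold change 1.55, SE 0.10, adjusted p = 5.78e-07). SSFA2 (ITPRID2) had 438.5, 434.7 and 378.5 CPM in KO_WT, 439.2, 434.0 and 410.5 CPM in KO and 139.0, 146.9 and 133.0 CPM in Scramble, with the same adjusted p and a log2 fold change of 1.58 (SE 0.10). BCHE, butyrylcholinesterase, averaged 12.4 ± 0.717 CPM in KO_WT, 12.5 ± 1.26 CPM in KO and 3.12 ± 0.958 CPM in Scramble (log2 fold change 1.99, SE 0.22). RALYL, an RNA-binding protein, had 50.6, 44.8 and 27.0 CPM in KO_WT, 30.0, 32.6 and 19.4 CPM in KO and 3.35, 3.81 and 1.99 CPM in Scramble (log2 fold change 3.74, SE 0.36, adjusted p = 4.33e-05). The RALYL ranges of KO_WT and KO overlapped. KO_WT minus KO was 0.58, not called at adjusted p = 0.625 and called with the replicate block (adjusted p = 0.0342). RALYL averaged 38.1 CPM in KO_S47A and 37.4 CPM in KO_S404A.

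Prostate identity was compared through a list of androgen-regulated and lineage genes. Of its 44 tested genes, 1 rose and 4 fell, and the median was -0.16; with the replicate block 3 rose and 6 fell. TRPM8, a cation channel and prostate marker, had 40.5, 42.2 and 38.3 CPM in KO_WT, 34.9, 36.5 and 33.0 CPM in KO and 117.1, 108.0 and 95.3 CPM in Scramble (log2 fold change -1.40, SE 0.15, adjusted p = 0.000131). KLK2, a secreted kallikrein protease, had 544.6, 525.1 and 550.8 CPM in KO_WT, 415.1, 463.3 and 532.4 CPM in KO and 926.5, 866.1 and 824.5 CPM in Scramble (log2 fold change -0.69, SE 0.13, adjusted p = 0.00929). ABCC4, an efflux pump, averaged 204.5 ± 4.16 CPM in KO_WT and 295.7 ± 21.5 CPM in Scramble (adjusted p = 0.00700), and ODC1, the first enzyme of polyamine synthesis, 691.9 ± 47.5 CPM and 1028.9 ± 2.72 CPM in the same order (adjusted p = 0.00981). MAF, a transcription factor, was the member that rose, with 31.8, 31.5 and 23.2 CPM in KO_WT, 36.9, 29.0 and 21.8 CPM in KO and 15.5, 14.0 and 15.6 CPM in Scramble (log2 fold change 0.94, SE 0.18, adjusted p = 0.00960). The count of fallen members was 2 without KO_WT 1, since KLK2 and ODC1 lost their calls then (adjusted p = 0.0522 and 0.0710); KLK2 also lost its call without KO_WT 2 or Scramble 1 (adjusted p = 0.0571 and 0.0548). KLK3, which encodes prostate-specific antigen, was named after its values were seen. It had 2836.6, 2638.1 and 3232.1 CPM in KO_WT, 1991.4, 2209.7 and 2772.5 CPM in KO and 3535.3, 3529.7 and 3482.6 CPM in Scramble (adjusted p = 0.567). Kallikrein genes are similar to each other, and their split of shared reads is uncertain.

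AGR2, a disulfide isomerase of luminal secretory cells, was the largest change among 24 luminal genes, of which 2 fell and 0 rose (median -0.11; 5 fell with the replicate block). It had 6.84, 4.66 and 5.30 CPM in KO_WT, 2.20, 2.43 and 3.87 CPM in KO and 39.3, 39.4 and 33.6 CPM in Scramble (log2 fold change -2.74, SE 0.31, adjusted p = 0.000215). AMACR, a racemase of branched fatty acids used as a prostate cancer marker, averaged 36.6 ± 5.33 CPM in KO_WT and 57.8 ± 6.85 CPM in Scramble (adjusted p = 0.0295), a call lost without each library but Scramble 3 (adjusted p = 0.0610 to 0.126). Of 6 basal genes, 2 rose and 1 fell (median -0.27). ITGB4, an integrin of hemidesmosomes, averaged 15.3 ± 0.633 CPM in KO_WT and 10.3 ± 0.840 CPM in Scramble (adjusted p = 0.00456), whereas the basal keratin KRT14 averaged 2.18 ± 0.295 CPM in KO_WT and 4.46 ± 0.197 CPM in Scramble (adjusted p = 0.00342). ITGA6, its partner integrin, averaged 79.2 ± 6.24 CPM in KO_WT and 58.2 ± 2.37 CPM in Scramble (adjusted p = 0.0129), a call lost without KO_WT 3, Scramble 1 or Scramble 2 (adjusted p = 0.0510 to 0.0754). The basal markers TP63, KRT5, KRT15 and KRT17 had no count in the 6 libraries.

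WLS, which carries Wnt ligands to the cell surface, stood between KO and Scramble in KO_WT. It had 14.7, 12.5 and 10.9 CPM in KO_WT, 6.12, 5.26 and 5.55 CPM in KO and 20.8, 20.9 and 21.1 CPM in Scramble. The 3 lines did not overlap. KO_WT was above KO by 1.17 on the log2 scale (95% interval 0.92 to 1.43, adjusted p = 0.000964) and below Scramble by a log2 fold change of -0.72 (SE 0.12, adjusted p = 0.00334). PCDH7, a protocadherin, moved the other way, at 21.9, 19.9 and 23.7 CPM in KO_WT, 58.6, 60 and 58.7 CPM in KO and 10.1, 8.72 and 15.7 CPM in Scramble. Its log2 fold change was -1.44 against KO (adjusted p = 0.00763) and 0.92 against Scramble (SE 0.18, adjusted p = 0.0123), where the call was lost without Scramble 1 or Scramble 2 (adjusted p = 0.0690 and 0.0542). CCDC85A, a coiled-coil protein, had 2.55, 3.25 and 2.40 CPM in KO_WT, 0.863, 0.612 and 0.729 CPM in KO and 28.8, 32.4 and 20.6 CPM in Scramble. It was 1.90 above KO on the log2 scale (adjusted p = 0.00247) and still 9.96-fold below Scramble (log2 fold change -3.32, SE 0.20, adjusted p = 5.78e-07). A mean between those of KO and Scramble was not particular to KO_WT for these genes. WLS averaged 7.74 CPM in KO_S47A and 11.6 CPM in KO_S404A. In the same order PCDH7 averaged 50.8 and 30.3 CPM, and CCDC85A 1.39 and 2.41 CPM.

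Of 38 tested genes of Wnt secretion and signalling, 1 rose and 4 fell, with a median of -0.04; with the replicate block 4 rose and 11 fell. WNT5A, a ligand of non-canonical Wnt signalling, had 8.79, 6.84 and 6.36 CPM in KO_WT, 7.48, 6.76 and 5.48 CPM in KO and 14.1, 19.0 and 15.5 CPM in Scramble (log2 fold change -1.15, SE 0.18, adjusted p = 0.00272). FZD4, a Wnt receptor, averaged 30.3 ± 1.96 CPM in KO_WT, 32.4 ± 1.07 CPM in KO and 47.1 ± 2.85 CPM in Scramble (adjusted p = 0.00116). RNF43, which removes Wnt receptors from the surface, averaged 9.60 ± 0.577 CPM in KO_WT and 17.2 ± 1.52 CPM in Scramble (adjusted p = 0.0115), a call lost without KO_WT 1, KO_WT 2 or Scramble 2 (adjusted p = 0.0527 to 0.0590). The receptor FZD6 was the one that rose, at 105.4 ± 13.2 CPM in KO_WT and 71.5 ± 3.40 CPM in Scramble (adjusted p = 0.0200), a call lost without each library but KO_WT 3 (adjusted p = 0.0610 to 0.136). AHR, the aryl hydrocarbon receptor, had 2.78, 1.34 and 2.36 CPM in KO_WT, 3.14, 3.21 and 2.41 CPM in KO and 8.91, 8.30 and 8.08 CPM in Scramble (log2 fold change -1.96, SE 0.27, adjusted p = 0.00113). It was the single call among 8 tested genes of its pathway, and 4 fell with the replicate block.

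**Figure D4:**
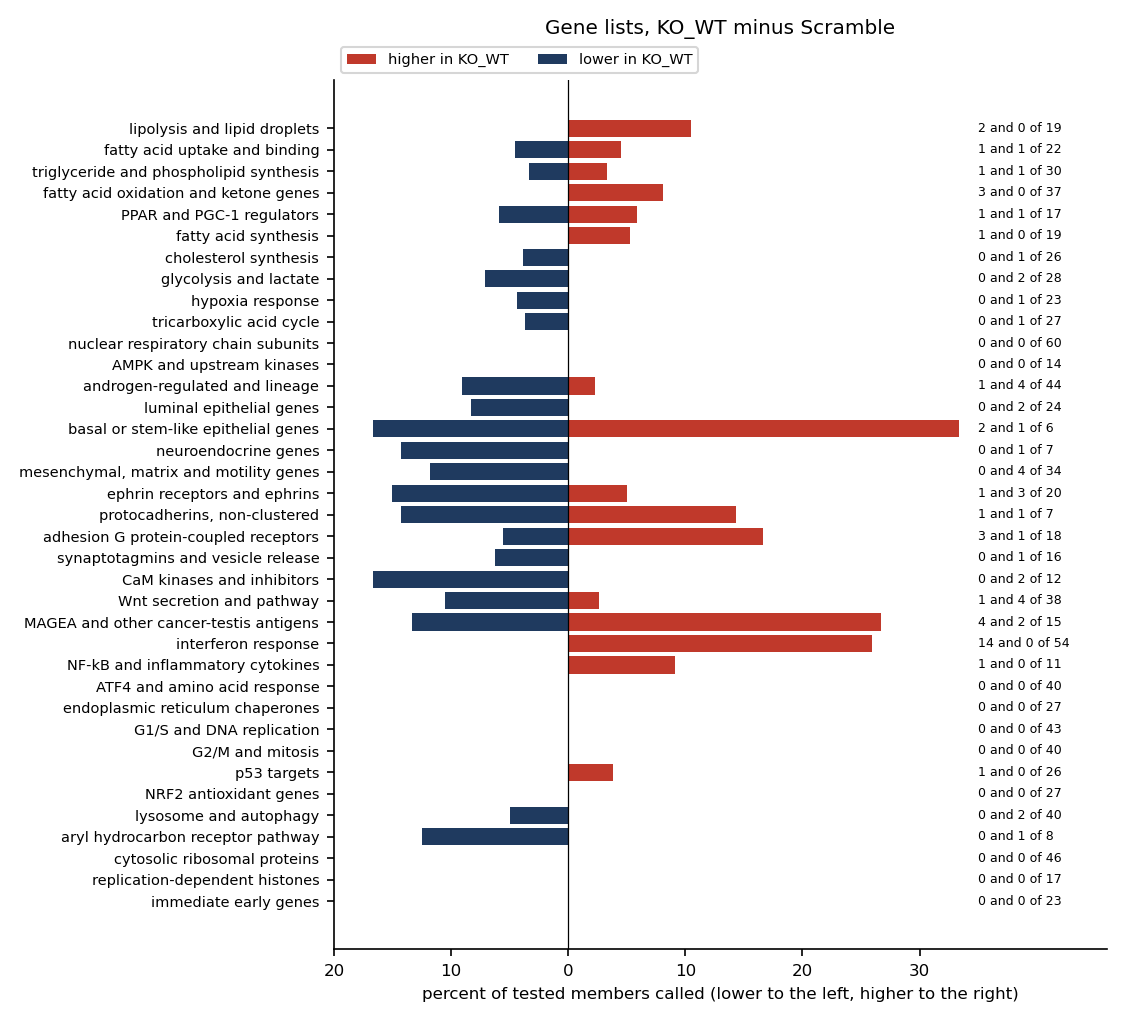
Share of the tested members of 37 gene lists called higher (right) or lower (left) in KO_WT than in Scramble, in percent, with the numbers higher and lower of those tested at the right edge. Over all genes 1.51% were higher and 1.96% lower; the interferon list has 14 higher and 0 lower of 54.

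The interferon response list held the most calls of any list described here. Of 54 tested members, 14 rose and 0 fell, 45 had a log2 fold change above 0, and the median was 0.39 against 0.01 over all genes. The listed member IRF9 had no count in the 6 libraries compared. Interferons bind surface receptors, activate transcription factors in the cell, and these switch on antiviral and antigen-presentation genes through a DNA element called the ISRE. The mean of the 54 members' log2 levels, taken as log2(CPM + 0.5) relative to the gene's own mean over all 15 libraries, was 0.11, 0.09 and 0.10 in KO_WT, 0.06, 0.02 and 0.06 in KO and -0.31, -0.34 and -0.25 in Scramble. KO_WT and KO lay above Scramble in every library, and the median KO minus Scramble was 0.30. The count of risen members was 6 without KO_WT 1, 8 without KO_WT 2, 13 without KO_WT 3, 9 without Scramble 1, 8 without Scramble 2, 7 without Scramble 3, 7 in the fit of the 2 groups alone, and 20 with the replicate block. In each of these settings 0 members fell.

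The promoters of 4 risen members that hold an ISRE core are printed here, because interferon-activated factors are known to act through this element; they are the RefSeq promoters on GRCh38.p14, 250 bases before to 50 after the gene's start, 5′ to 3′ on the gene's strand. Capitals mark the core GAAANNGAAA on either strand. SAMD9 is chr7:93117930-93118229 on the minus strand, IFIT3 is chr10:89327747-89328046 on the plus strand, IFITM1 is chr11:313790-314089 on the plus strand, and LGALS3BP is chr17:78979874-78980173 on the minus strand.
SAMD9: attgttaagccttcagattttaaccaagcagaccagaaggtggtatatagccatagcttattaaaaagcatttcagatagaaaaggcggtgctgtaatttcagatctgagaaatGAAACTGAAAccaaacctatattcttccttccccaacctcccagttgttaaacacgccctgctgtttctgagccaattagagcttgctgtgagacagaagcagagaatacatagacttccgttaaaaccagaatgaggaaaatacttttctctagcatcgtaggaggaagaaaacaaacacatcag
IFIT3: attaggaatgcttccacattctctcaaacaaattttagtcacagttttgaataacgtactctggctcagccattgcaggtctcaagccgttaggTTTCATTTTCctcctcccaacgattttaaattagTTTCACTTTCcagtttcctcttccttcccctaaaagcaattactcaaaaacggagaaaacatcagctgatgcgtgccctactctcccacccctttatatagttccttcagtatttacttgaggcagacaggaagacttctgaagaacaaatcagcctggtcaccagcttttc
IFITM1: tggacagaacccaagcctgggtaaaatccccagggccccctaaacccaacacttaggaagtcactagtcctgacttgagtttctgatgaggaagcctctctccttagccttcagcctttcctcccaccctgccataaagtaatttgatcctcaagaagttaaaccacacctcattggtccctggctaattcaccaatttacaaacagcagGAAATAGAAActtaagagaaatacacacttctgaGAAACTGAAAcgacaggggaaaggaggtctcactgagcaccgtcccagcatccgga
LGALS3BP: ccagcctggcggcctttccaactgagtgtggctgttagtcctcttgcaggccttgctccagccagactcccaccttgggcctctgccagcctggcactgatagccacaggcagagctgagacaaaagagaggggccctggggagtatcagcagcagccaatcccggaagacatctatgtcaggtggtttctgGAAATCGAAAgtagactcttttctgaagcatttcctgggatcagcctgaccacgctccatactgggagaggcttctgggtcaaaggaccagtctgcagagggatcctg
The core starts 136 bases before the start of SAMD9, 156 and 122 before that of IFIT3, 40 and 6 before that of IFITM1, and 58 before that of LGALS3BP. Of the 14 risen members 10 had a promoter in the table, and 7 of these (70.0%) held the core. So did 19 of 31 members that were not called (61.3%), and 299 of 11229 promoters of tested genes (2.66%). A match is a description of letters and not a bound site.

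Of the antiviral effectors, SAMD9, a cytoplasmic restriction factor, had 1.13, 1.27 and 1.96 CPM in KO_WT, 1.46, 0.991 and 2.21 CPM in KO and 0.0250, 0.166 and 0.215 CPM in Scramble (log2 fold change 3.35, SE 0.56, adjusted p = 0.00431). IFITM1, a membrane protein that blocks viral entry, had 9.46, 9.09 and 9.85 CPM in KO_WT, 7.64, 8.54 and 8.34 CPM in KO and 3.68, 4.47 and 4.20 CPM in Scramble (log2 fold change 1.2, SE 0.21, adjusted p = 0.00490). Both kept their calls with each library left out, and KO_WT stayed clear of Scramble in each. OAS1, a sensor of double-stranded RNA, had 2.49, 2.10 and 2.45 CPM in KO_WT, 1.71, 1.78 and 2.11 CPM in KO and 0.475, 0.870 and 1.13 CPM in Scramble (log2 fold change 1.49, SE 0.26, adjusted p = 0.00554), and lost its call in the fit of the 2 groups alone (adjusted p = 0.0710). IFIT3, IFIT2 and OASL, which bind viral RNA or act in its sensing, rose with larger adjusted p-values, at log2 fold changes of 1.68, 1.61 and 2.26 (adjusted p = 0.0216, 0.0149 and 0.0258). Each lost its call without KO_WT 1 (adjusted p = 0.0528, 0.0785 and 0.0642) and without Scramble 2 (adjusted p = 0.1, 0.0782 and 0.116). IFIT3 also lost it without KO_WT 2, KO_WT 3 or Scramble 1 (adjusted p = 0.0546 to 0.106), IFIT2 without Scramble 3 (adjusted p = 0.0782), and OASL without each of the others (adjusted p = 0.0610 to 0.0753).

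**Figure D5:**
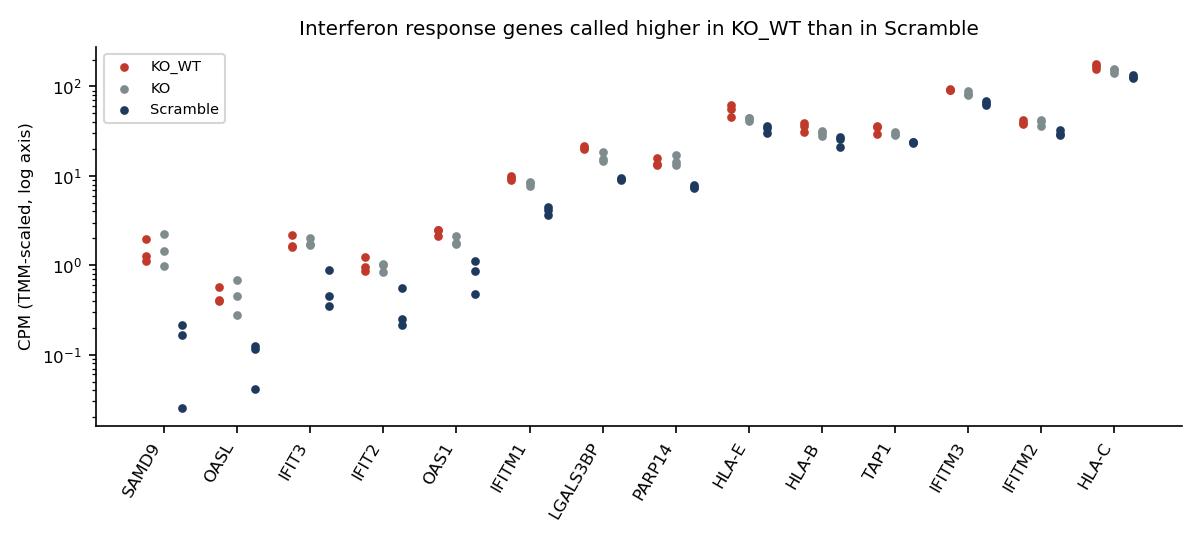
Levels of the 14 interferon response genes called higher in KO_WT than in Scramble, in TMM-scaled CPM on a log axis; points are libraries, with KO_WT left, KO in the middle and Scramble right for each gene. For all 14 the 3 KO_WT libraries lie above the 3 Scramble libraries. The ranges were separate in all 494 called genes, and in 23.1% of all tested genes.

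The other 8 risen members are outside the rule that names genes and are given to complete the count. LGALS3BP, a secreted glycoprotein, had 21.8, 20.2 and 20.6 CPM in KO_WT, 14.5, 15.3 and 18.5 CPM in KO and 9.03, 9.17 and 9.52 CPM in Scramble (log2 fold change 1.17, SE 0.10, adjusted p = 1.13e-05). PARP14, an ADP-ribosyltransferase, averaged 14.2 ± 1.40 CPM in KO_WT, 15.0 ± 2.07 CPM in KO and 7.60 ± 0.364 CPM in Scramble (adjusted p = 0.00114). IFITM3 averaged 91.8 ± 2.08 CPM in KO_WT, 84.1 ± 4.52 CPM in KO and 65.3 ± 3.72 CPM in Scramble (adjusted p = 0.00431). These 3 kept their calls with each library left out. Antigen presentation was represented by HLA-E, HLA-B, HLA-C and the peptide transporter TAP1, with log2 fold changes of 0.68, 0.52, 0.37 and 0.49. HLA-E lost its call without KO_WT 1 or Scramble 3 (adjusted p = 0.0593 and 0.0515). HLA-B lost it without KO_WT 1, KO_WT 2, Scramble 2 or Scramble 3 (adjusted p = 0.0521 to 0.128), HLA-C without each library but KO_WT 3 (adjusted p = 0.118 to 0.235), and TAP1 without KO_WT 1, KO_WT 2, Scramble 1 or Scramble 3 (adjusted p = 0.0581 to 0.0798). IFITM2, with a log2 fold change of 0.39, lost it without any 1 library (adjusted p = 0.0634 to 0.172). IFITM and HLA genes share long stretches with their relatives, and their counts are uncertain to that extent.

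ISG15, a ubiquitin-like modifier and a well-known interferon target, was not called. It averaged 52.7 ± 4.12 CPM in KO_WT, 53.6 ± 7.63 CPM in KO and 48.2 ± 5.11 CPM in Scramble. Its ranges in KO_WT and Scramble overlapped (adjusted p = 0.812), and it was named after its values were seen.

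Other lists held 1 or 2 calls each. PLOD2, which modifies collagen lysines and is the single fallen gene of 23 on the hypoxia list (with the replicate block 2 rose and 5 fell), had 0.439, 0.407 and 0.341 CPM in KO_WT, 0.226, 0.252 and 0.542 CPM in KO and 4.13, 1.88 and 2.13 CPM in Scramble (log2 fold change -2.77, SE 0.52, adjusted p = 0.00831). PCDH20, a protocadherin, had 0.670, 0.167 and 0.383 CPM in KO_WT, 0.575, 0.739 and 0.617 CPM in KO and 2.58, 2.24 and 4.89 CPM in Scramble (log2 fold change -2.97, SE 0.53, adjusted p = 0.00596). Of 40 lysosome and autophagy genes 2 fell and 0 rose (1 rose with the replicate block), the autophagy receptor SQSTM1 and the lysosomal transcription factor TFEB. SQSTM1 averaged 121.4 ± 17.6 CPM in KO_WT and 203.3 ± 34.4 CPM in Scramble (adjusted p = 0.0260), a call lost without each library but Scramble 3 (adjusted p = 0.0537 to 0.109). TFEB averaged 7.10 ± 0.920 CPM in KO_WT and 10.4 ± 1.2 CPM in Scramble (adjusted p = 0.0404), a call lost without KO_WT 1, KO_WT 2, Scramble 1 or Scramble 3 (adjusted p = 0.130 to 0.183). ICAM1, an adhesion molecule and the single risen gene of 11 NF-kB targets, averaged 35.3 ± 1.38 CPM in KO_WT and 26.7 ± 1.83 CPM in Scramble (adjusted p = 0.0260), and lost its call without each library but KO_WT 3 (adjusted p = 0.0513 to 0.145). TP53I3, a quinone reductase and the single risen gene of 26 p53 targets (2 with the replicate block), averaged 9.94 ± 1.45 CPM in KO_WT and 6.41 ± 0.440 CPM in Scramble (adjusted p = 0.0323), and lost its call without each library but KO_WT 3 (adjusted p = 0.0734 to 0.172).

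Several programmes gave 0 calls in KO_WT against Scramble by the unblocked edgeR fit of all 15 libraries and by DESeq2. Of 40 ATF4 and amino acid response genes (median 0.09), 27 endoplasmic reticulum chaperones (0.08), 43 genes of G1/S and DNA replication (-0.10), 40 genes of G2/M and mitosis (-0.12) and 46 cytosolic ribosomal protein genes (-0.01), 0 reached an unadjusted p under 0.05. Of 23 immediate early genes (median -0.10) 2 did, and of 17 replication-dependent histones (0.05) 0 did. Of 27 NRF2 antioxidant genes (median -0.12) 7 did. With the replicate block 5 of the NRF2 genes, 2 of the G1/S genes and 1 immediate early gene were called lower. Against KO the ATF4 list had a median of 0.49 and the G1/S list one of -0.38 in KO_WT, with 0 members called by edgeR or at an unadjusted p under 0.05. The summed level of the G1/S list ran from 2936.5 to 6297.8 CPM in KO_WT and from 3595.5 to 6262.3 CPM in Scramble, a spread between libraries of one line that limits what could be detected.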

How the data were processed

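Per the file headers, each deposited table gives raw read counts by gene for 1 library. The same tables hold FPKM values that the authors scaled to gene length and library size; these were not used in any test. The submitters' processing notes name CASAVA and STAR, with no version. Genome build, annotation and strand setting are not given in the sources used, so counts of genes that overlap, on either strand, are uncertain. Per the labels' protocols, the library kit was directional and took poly(A) RNA.

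Entries of unassigned reads, 16.5% to 20.6% of the 6 libraries compared, entered neither library sizes nor tests. The tables hold 20806 gene entries, of which 14246 passed edgeR's filterByExpr. All 15 libraries entered 1 quasi-likelihood fit with a mean for each line (edgeR 4.0.16 in R 4.3.3, TMM scaling, 10 residual degrees of freedom), with Benjamini-Hochberg adjustment over all tested genes and a threshold of 0.05. The fit was tested on simulated counts with known changes. SE was approximated from the log2 fold change and its F statistic, and the 95% intervals follow from it. Levels are TMM-scaled CPM, as values or as mean ± SD over 3 libraries. Replicates of a line differed by more than sampling noise, and each was entered as its own sample. That spread does not show whether they were separate cultures. A gene with few counts was compared by its summed counts with an exact interval, or by a floor of 3 counts.

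Libraries of KO_WT and Scramble with the same number deviated together from their group means, with correlations over genes of 0.237, 0.232 and 0.526 for the numbers 1, 2 and 3. KO_WT 1 correlated at 0.29 with Scramble 2, and KO_WT 2 at 0.156 with Scramble 1. Libraries numbered 3 correlated at -0.425 to -0.281 with those of other numbers. The check therefore set number 3 apart and did not separate 1 from 2, and the replicate block was used as an alternative. What the numbers mark is not stated. The unblocked fit is the main one.

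Named genes are PNPLA2, then the 10 risen and 10 fallen called genes with the largest change among those with a mean of 10 CPM or more in the higher line and separate ranges, then up to 6 called members per list with the largest change; some genes are not reported here. The comparison, the 40 lists and the tests were chosen with earlier results of these data known. Symbols were matched by gene identifier for 20623 entries, and promoters were taken from RefSeq, GRCh38.p14. The alternatives were the fit of the 2 groups alone, the replicate block, DESeq2 1.42.0, RLE scaling, no filter on low counts, the libraries numbered 1 and 2 alone, chromosome 22 left out, and each library left out.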

Additional observations from a re-analysis of the deposited data

How the results depend on the processing

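Of 94 called genes examined, 59 kept their call in all 13 alternatives and 0 changed direction. Many of the 94 were picked for large changes or for calls that held, so this share does not describe all 494 calls. Of the 494, 235 to 364 were called again in the same direction with a library left out. The fit of the 2 groups alone called 305 of them again, and DESeq2 493. With the replicate number as a block, 1429 genes were called, 653 higher and 776 lower in KO_WT, and of the 94 genes 0 lost a call. The block fit also called CPT1A, FASN, MGLL and PPARA, which the main unblocked fit did not. Some unblocked alternatives called them too. DESeq2 called CPT1A, MGLL and PPARA (adjusted p = 0.00395, 0.0468 and 0.0333). The edgeR fit of the libraries numbered 1 and 2 alone called FASN, MGLL and PPARA (adjusted p = 0.0333, 0.0459 and 0.0395). PPARA is on chromosome 22. DESeq2 called 838, 344 higher and 494 lower. The libraries numbered 1 and 2 alone gave 350 higher genes and the fit of the 2 groups alone 125; in that fit 24 of the 94 genes lost their call, all but OAS1 among those that also lost it with a library left out. With each library left out in turn the calls ran from 240 to 440, with 100 to 210 higher and 140 to 230 lower. The cause of these shifts was not tested. The call of PNPLA2 held in each alternative, with log2 fold changes from 2.05 to 2.25.

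Changes of sign were limited to values that were not called. KO_WT minus Scramble turned to -0.14, -0.21 and -0.06 for PLIN2, which was under 0.3 CPM in each of the 6 libraries, and to -0.04, -0.05 and -0.03 for LIPE, with the libraries numbered 1 and 2 alone, without KO_WT 2 and without Scramble 3. For DGAT2 it turned to 0.03, 0.01 and 0.18 under the same 3 and to 0.10 without KO_WT 1. With single libraries left out these 3 genes ran from -0.21 to 1.67, from -0.05 to 0.25 and from -0.16 to 0.18. KO_WT minus KO turned to 0.01 for IFIT3, ABHD5 and IFITM2 in the fit of the 2 groups alone. The depth and 3 libraries per line limit the precision: the unadjusted 95% interval of the median gene reached 0.36 on the log2 scale to either side.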

Other observations

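The genes of this section were chosen after their values were seen, and their calls held with each library left out. Some genes were near absent in 1 line and present in the other. PEG3, an imprinted zinc finger gene, had no count in any KO_WT library and stood at 3.58, 3.15 and 2.37 CPM in Scramble, and was at least 45.8-fold lower in KO_WT against a floor of 3 counts (adjusted p = 0.000131). SERPINB9, an inhibitor of granzyme B, stood at 2.53, 2.01 and 1.98 CPM in KO_WT and 0.00, 0.0207 and 0.0196 CPM in Scramble, a ratio on summed counts of 152.1 (95% counting interval 41.7 to 1261.4). DDX53, a helicase of the cancer-testis class, had 9.42, 9.52 and 7.28 CPM in KO_WT, 9.35, 9.17 and 8.64 CPM in KO and 0.3, 0.207 and 0.332 CPM in Scramble (log2 fold change 4.95, SE 0.27, adjusted p = 3.12e-07). LPPR1 (PLPPR1), a phosphatase-related membrane protein of neurons, averaged 0.443 ± 0.105 CPM in KO_WT, 0.493 ± 0.0932 CPM in KO and 6.64 ± 1.18 CPM in Scramble (adjusted p = 5.35e-06).

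BMPR1B, BMP7, BAMBI and IRS1 were lower in KO_WT. BMPR1B, a receptor of bone morphogenetic proteins, had 5.50, 5.41 and 2.77 CPM in KO_WT, 6.43, 5.40 and 6.04 CPM in KO and 28.5, 26.9 and 24.2 CPM in Scramble (log2 fold change -2.54, SE 0.22, adjusted p = 1.68e-05). The ligand BMP7 averaged 4.65 ± 0.608 CPM in KO_WT, 4.15 ± 0.311 CPM in KO and 15.8 ± 2.47 CPM in Scramble (adjusted p = 0.000131), and BAMBI, a decoy receptor of the same family, 5.56 ± 0.969 CPM, 5.91 ± 1.86 CPM and 23.8 ± 6.10 CPM in the same order (adjusted p = 0.00371). IRS1, an adaptor of the insulin receptor, averaged 8.01 ± 0.774 CPM in KO_WT, 9.27 ± 3.08 CPM in KO and 21.0 ± 2.88 CPM in Scramble (adjusted p = 0.00431). The kinase PIM2 was higher in KO_WT, at 40.6 ± 1.66 CPM, against 39.8 ± 0.962 CPM in KO and 18.8 ± 1.22 CPM in Scramble (adjusted p = 8.10e-06). KCNH8, a potassium channel, had 10.1, 9.59 and 8.85 CPM in KO_WT, 5.45, 4.27 and 3.44 CPM in KO and 3.00, 2.65 and 2.23 CPM in Scramble, so that KO_WT stood above both. Its log2 fold change was 1.86 against Scramble (adjusted p = 0.000307) and 1.12 against KO, not called there at adjusted p = 0.302 and called with the replicate block (adjusted p = 0.000527). KCNH8 averaged 7.64 CPM in KO_S47A and 11.3 CPM in KO_S404A.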
